A study of Macaca mulatta with 8 samples.

Results

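Cytoplasmic ribosomal proteins are the protein subunits of the ribosome outside the mitochondria. Their genes were taken as the probe sets whose single platform gene symbol starts with RPL or RPS and a digit, or with RPLP or RPSA, without the RPS6K kinases. The rule found 69 of 52766 probe sets, for 41 of 12993 named genes. Of these genes, 25 have RPL and a digit, 2 are acidic stalk genes (RPLP1 and RPLP2) and 14 start with RPS. RPLP0, RPSA and RPL3 had no probe set with a single symbol, so the counts by part of the ribosome are incomplete. RPL7L1, a ribosome assembly factor, and RPS19BP1, a regulator of the deacetylase SIRT1, meet the symbol rule without being subunits. Oocytes of the rhesus macaque at metaphase II, the stage of the mature egg, were compared after maturation in vitro (4 arrays) and after maturation in vivo (4 arrays). Each array carried RNA from a pool of 4 oocytes. The labels give no animals, ages, hormone treatment or culture medium. The design text calls the pools biological replicates but ties none to an animal, so a p-value here reflects only how far pools of a group vary.

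The large subunit of the ribosome joins amino acids and the small subunit reads the mRNA, and each contains many proteins made in matched amounts. The stalk of acidic proteins on the large subunit recruits elongation factors. Messenger RNAs of ribosomal proteins start with a tract of pyrimidines, which lets mTOR signalling set how much of them is translated. The growing oocyte stocks ribosomes and mRNAs for the embryo, and its own transcription stops before metaphase II. Ribosomal protein genes also left many processed copies in primate genomes, so that probes can match more than 1 locus.

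The signals are MAS5 intensities, scaled by array to a common trimmed mean. They give a transcript's standing relative to the other transcripts of the same array, not the amount of RNA in an oocyte, and fewer cells of a type and less RNA per cell cannot be told apart. Probes differ in how well they bind, so the order of 2 probe sets in signal is no order of transcript amounts. Background was taken on each array as the 95th percentile of 59 control probe sets that were not spiked in, and 49.9% to 60.9% of probe sets exceeded it. Precision is limited by having 4 arrays in a group. The oocyte marker list (11 genes on the array) had summed signals of 38779.5 to 49270 in vitro and 40511 to 55520 in vivo. In the limma fit given below, 0 of the 11 passed an adjusted p of 0.05, against 0.144% of all tested probe sets. At an unadjusted p under 0.05, 1 was higher in vitro (NLRP13, log2 fold change 0.45) and 2 were lower (NLRP5 at -1.03 and LHX8 at -0.62). Over all tested probe sets 4.70% were higher and 5.53% lower at that level.

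Of the 69 probe sets, 55 (37 genes) were bright enough to be tested, and 46 of them lay above background on all 8 arrays. The other 14 had mean signals of 5.05 to 26.9 in vitro and 6.90 to 29.9 in vivo, and none was above background on more than 4 arrays. The last probe set below the filter by its 8-array mean, 1 of RPS28, averaged 24.2, and the first above it, 1 of RPL30, averaged 29.0. RPL3L, RPL5, RPS19 and RPS27L had no probe set bright enough, so these genes were not tested.

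Maturation in culture was accompanied by a rise of 1 ribosomal protein probe set, and most of the others differed little. RPL13, which encodes a protein of the large subunit, passed the test at 1 of its 4 tested probe sets. No ribosomal protein probe set was called lower. The limma fit over all tested probe sets called 0.144% of them (38 of 26383) at a Benjamini-Hochberg adjusted p of 0.05, with 0.102% higher and 0.0417% lower in vitro. Among the ribosomal protein probe sets it called 1 of 55 higher and 0 lower. At an unadjusted p of 0.05 there were 6 ribosomal protein probe sets, or 10.9%, against 10.2% of all tested probe sets. Of these 6, 5 were higher in vitro and 1 was lower, where all tested probe sets had 4.70% higher and 5.53% lower. The median log2 fold change was 0.02 over the 55 and 0.01 over all tested probe sets, and 46 of the 55 lay within 0.5 of 0 on the log2 scale. The median size of the log2 fold change, whatever its direction, was 0.14 for the 55 and 0.26 for all tested probe sets. These sets were not matched for signal, and 33 of the 55 had a mean signal above 1000. The share within 0.5 of 0 was not counted over all tested probe sets. A smaller change can thus not be called particular to ribosomal protein genes.

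**Figure D1:**
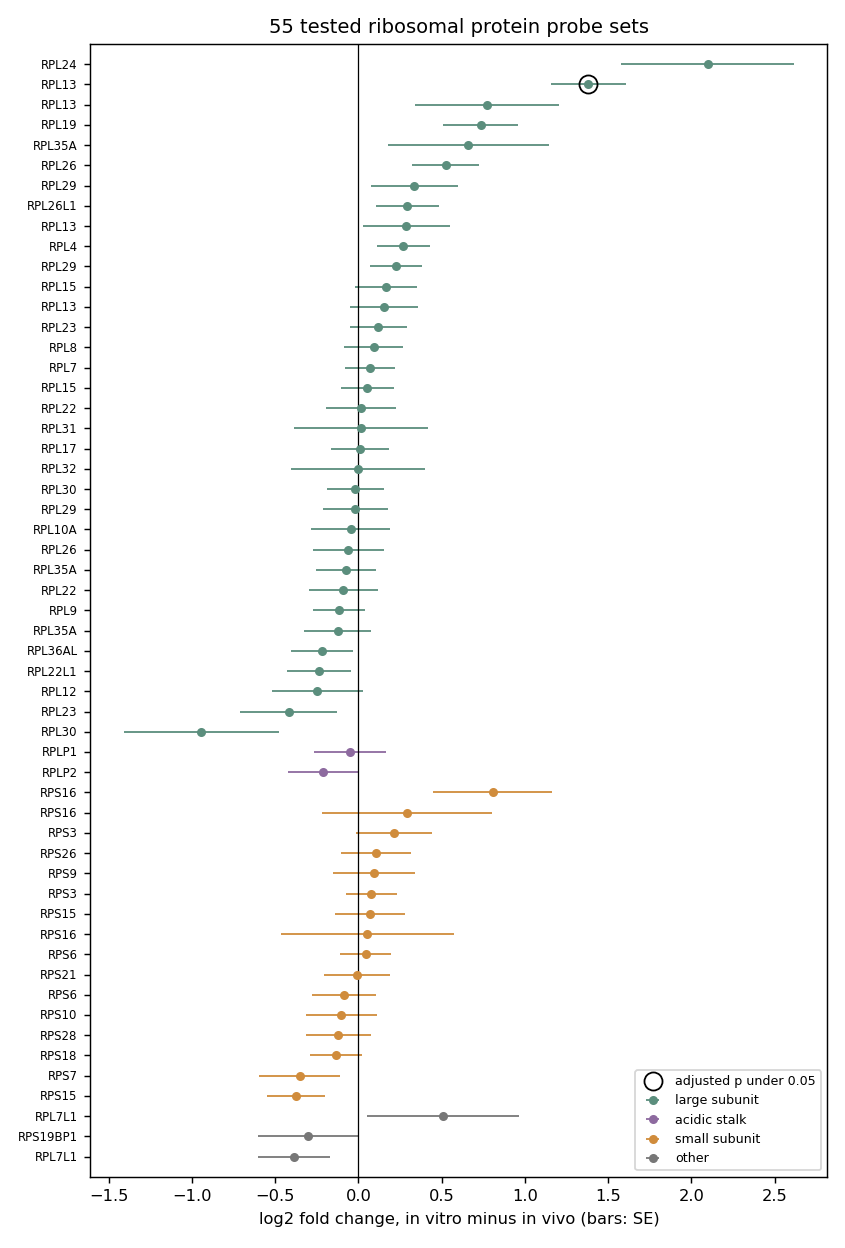
Log2 fold change (in vitro minus in vivo, horizontal axis, bars are the SE, n = 4 arrays each) of the 55 tested probe sets, 1 row each and labelled by gene, grouped by part of the ribosome. The ring marks the RPL13 probe set at 1.38 that passed the adjusted threshold, and the RPL24 probe set at 2.10 has the widest bar among the large subunit rows.

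At the RPL13 probe set that rose, MmugDNA.31034.1.S1_at, the signals were 1069, 932, 1162 and 957 on the in vitro arrays, and 587, 299, 428 and 302 on the in vivo arrays. Every in vitro array was above every in vivo array. The means were 1030 ± 106 in vitro and 404 ± 136 in vivo (SD, n = 4 each), and the log2 fold change was 1.38 ± 0.22 (SE; limma adjusted p = 0.0258), which is 2.61-fold. The groups did not overlap at 4 of the 55 ribosomal protein probe sets, all higher in vitro, against 6.28% of all tested probe sets in either direction, 3.17% higher and 3.11% lower in vitro. RPL13 kept the call in 3 of the 8 fits that left out 1 array. It lost the call without in vitro replicate 1, 2, 3 or 4 and without in vivo replicate 2 (limma adjusted p of 0.131, 0.0893, 0.119, 0.0808 and 0.0849), while its log2 fold change over all 8 fits stayed between 1.26 and 1.58. The call was also lost in a fit without the intensity trend of the variance (limma adjusted p = 0.203).

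The other probe sets of RPL13 did not pass. MmugDNA.42536.1.S1_s_at had 5060.3, 6072, 4140 and 3457 in vitro and 5475, 3974, 3227 and 4059 in vivo, with a log2 fold change of 0.16 (limma adjusted p = 0.832). MmugDNA.37060.1.S1_at had 769, 853, 527 and 514 in vitro and 885, 459, 498 and 392 in vivo, and a log2 fold change of 0.29. In both, the groups overlapped, and in vivo replicate 1 was above at least 3 of the 4 in vitro arrays. MmugDNA.22462.1.S1_at lay near background, at 22.4, 46.9, 43.0 and 62.4 in vitro and 6.6, 42.8, 21.4 and 23.8 in vivo (log2 fold change 0.77). The last one, MmugDNA.22409.1.S1_at, was too dim to be tested, with 26.9 ± 19.3 in vitro and 11.1 ± 9.47 in vivo. All 5 carry the RPL13 symbol in the platform annotation, which does not say which part of the transcript each one reads.

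**Figure D2:**
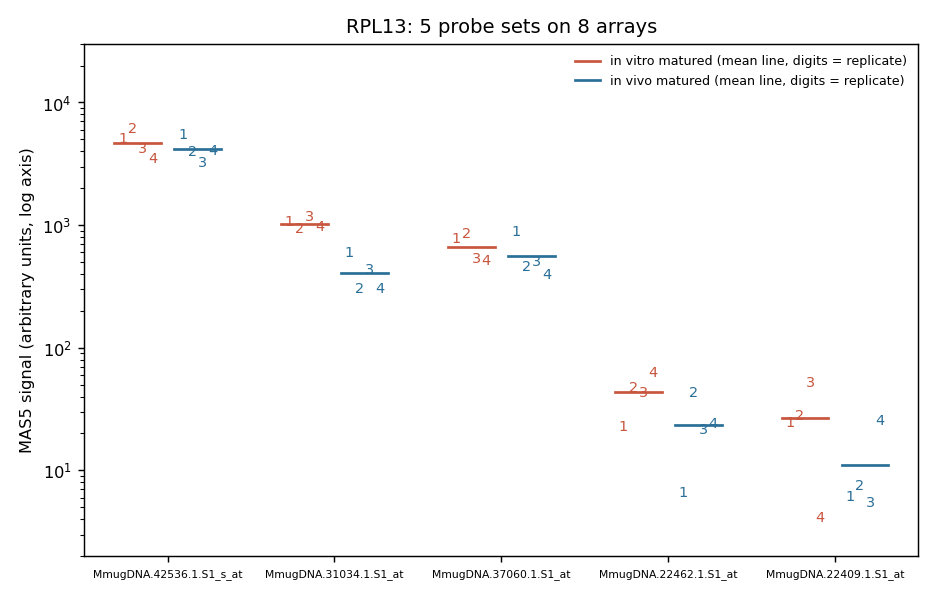
Signal (vertical log axis) of the 5 RPL13 probe sets on the in vitro (left, red) and in vivo (right, blue) arrays, with digits for the replicate and a line at the group mean. At MmugDNA.31034.1.S1_at the in vitro arrays, at 932 to 1162, lie above the in vivo arrays, at 299 to 587, while the groups overlap at the other 4.

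Whether probe sets of a gene differ in their change was tested in itself, with limma on the difference between each probe set and the brightest one of its gene. The test called 0% of 5557 such differences across 3565 genes, and 8.80% had an unadjusted p under 0.05. Of the 18 differences within 13 ribosomal protein genes 0 passed, and 2 had an unadjusted p under 0.05. In RPL13, the probe set that rose differed from the brightest by 1.23 ± 0.31 (SE) on the log2 scale (limma unadjusted p = 0.00231, adjusted p = 0.313). In RPL26 the difference was 0.59 ± 0.26 (limma adjusted p = 0.554). A different change at the probe sets of 1 gene was not called by this test for any ribosomal protein gene. As it called none of the 5557 differences, it cannot decide whether the RPL13 probe sets changed alike.

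The remaining large subunit genes with a small p did not pass the adjusted threshold. RPL24, whose protein helps to bridge the subunits, had the largest log2 fold change of the 55. Its signals were 286, 833, 508 and 234 in vitro and 132, 177, 122 and 19.2 in vivo. The groups did not overlap, but the in vivo arrays ranged widely, with replicate 4 below background, and the log2 fold change of 2.10 ± 0.52 (SE) had a limma adjusted p of 0.189. Without in vivo replicate 4 it was 1.48 (limma adjusted p = 0.0976). This was the only RPL24 probe set with a single symbol.

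RPL19, a large subunit protein near the intersubunit face, had 378, 437, 367 and 560.4 in vitro and 265, 268, 324 and 183 in vivo. The groups did not overlap, and the log2 fold change was 0.73 ± 0.23 (SE; limma adjusted p = 0.290). RPL26, a protein beside the exit of the peptide tunnel, had 626, 534, 601 and 531 in vitro and 503, 456, 314 and 336 in vivo at MmugDNA.4824.1.S1_at. There too the groups were apart, with a log2 fold change of 0.52 (limma adjusted p = 0.396). Its other probe set, MmunewRS.849.1.S1_s_at, had 2316, 2519, 2103 and 1562 in vitro and 3130.3, 2203, 1998 and 1649 in vivo, with a log2 fold change of -0.06. The groups overlapped at that probe set.

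**Figure D3:**
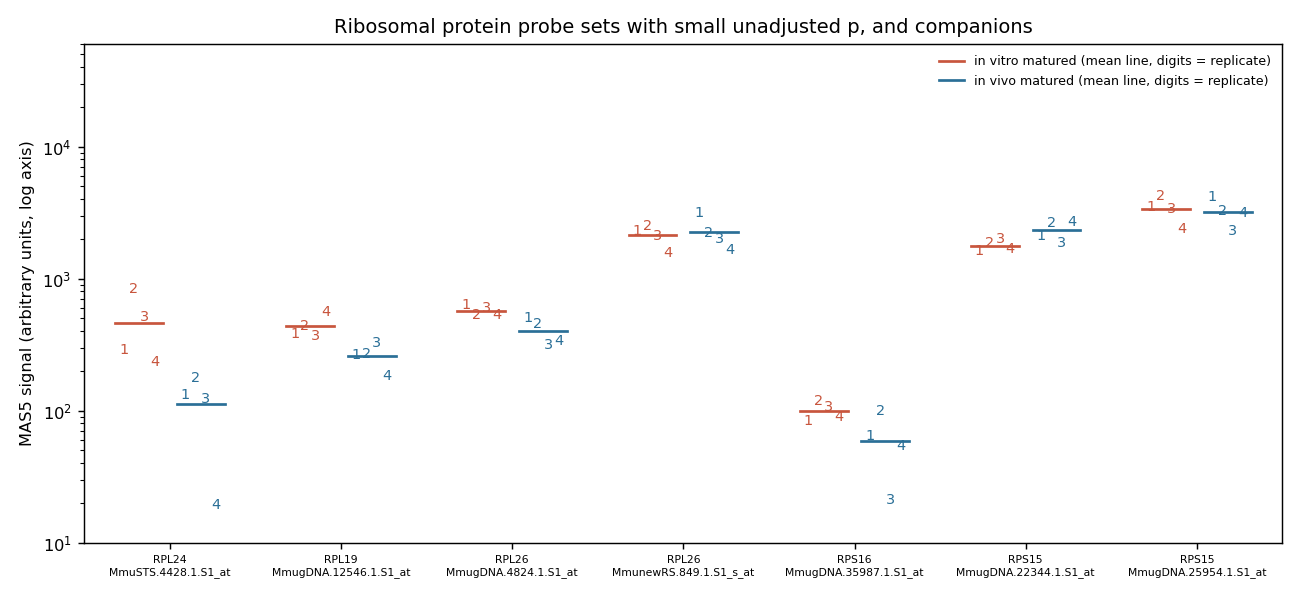
Signal (vertical log axis) on the in vitro (left, red) and in vivo (right, blue) arrays for the probe sets of RPL24, RPL19, RPL26, RPS16 and RPS15 with small unadjusted p, and for the second probe sets of RPL26 and RPS15; digits are replicates and lines group means. In vivo replicate 4 of RPL24, at 19.2, lies far below the other in vivo arrays, and the groups overlap at RPS16 and RPS15.

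In the small subunit, RPS16 and RPS15 had an unadjusted p under 0.05 and did not pass the adjusted threshold. RPS16, a protein of the small subunit head, had 83.6, 118, 107 and 89.2 in vitro and 64.0, 98.6, 21.0 and 53.6 in vivo at MmugDNA.35987.1.S1_at. In vivo replicate 2 lay among the in vitro arrays, and the log2 fold change was 0.81 ± 0.36 (SE; limma adjusted p = 0.460). Its other tested probe sets had 0.05 and 0.29, and both were at or below background on at least 1 in vivo array. RPS15, another head protein with a part in assembly, was the one in the opposite direction, at 1612, 1855, 1985 and 1667 in vitro and 2115, 2647, 1860.4 and 2693 in vivo. At that probe set, MmugDNA.22344.1.S1_at, the log2 fold change was -0.37 ± 0.17 (SE; limma adjusted p = 0.480), and its companion had 0.07.

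By part of the ribosome, 20 of 34 tested large subunit probe sets had a log2 fold change above 0, with a median of 0.04 and a range of -0.94 to 2.10. In the small subunit 9 of 16 were above 0, with a median of 0.05 and a range of -0.37 to 0.81. Over all tested probe sets 50.7% were above 0. The stalk genes RPLP1 and RPLP2 had -0.05 and -0.21. RPLP1 was at 12176, 12791, 12117 and 9554 in vitro and 10236, 12149, 8631 and 19282 in vivo, so the in vivo arrays lay on both sides of the in vitro ones. RPLP2 was at 7736, 7328, 5681 and 4306 in vitro and 6284, 6894, 5850.1 and 9903 in vivo, again overlapping.

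The probe sets with a mean signal above 1000 (33 probe sets of 28 genes, a level chosen after the values were seen) had log2 fold changes between -0.42 and 0.33, and their median SE was 0.19. The groups overlapped at all 33. The other 22 tested probe sets had a median SE of 0.28. RPS3, which lies at the mRNA entry channel, had 14059, 15560.0, 12987 and 11552 in vitro and 12982, 13904, 10648 and 13776 in vivo, a log2 fold change of 0.08 ± 0.15 (SE). Its second probe set had 0.21. RPS6, the target of the S6 kinases, had log2 fold changes of 0.04 and -0.08 at its 2 probe sets. RPL4, which lines the peptide tunnel, had 5742, 5985, 4865 and 4615 in vitro and 4031, 5179, 3931 and 4439 in vivo, and a log2 fold change of 0.27 ± 0.16 (SE; limma adjusted p = 0.588). Only in vivo replicate 2 reached into the in vitro range of RPL4.

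RPS28, a small subunit protein at the mRNA exit, had a log2 fold change of -0.12, and RPS7, another small subunit protein, had -0.35. RPL15 of the large subunit had 0.05 and 0.17. RPL23, which can bind the p53 regulator MDM2 in human cells, had 0.12 at its _s_at probe set and -0.42 at its _x_at probe set. The _x_at probe set had 3876, 3050.3, 3455 and 2028 in vitro and 3378, 3701, 2701 and 7883 in vivo, with in vivo replicate 4 above all other arrays. RPL29 was 0.23, 0.33 and -0.02 at its 3 probe sets, and RPL35A, a gene mutated in Diamond-Blackfan anaemia in humans, was -0.07, -0.12 and 0.66. The RPL35A probe set at 0.66 was dim, at 38.6 ± 0.95 in vitro and 27.1 ± 19.9 in vivo. A dim RPL30 probe set at -0.94 (limma adjusted p = 0.512) was at 15.1, 5.30, 42.4 and 11.5 in vitro and 44.7, 19.4, 55.2 and 38.2 in vivo. RPL30 binds RNA in the large subunit, and its bright probe set had -0.02 on the same scale.

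Among paralogs, RPL26L1, close in sequence to RPL26, had a log2 fold change of 0.29 ± 0.19 (SE; limma adjusted p = 0.627), at 1365 ± 152 in vitro and 1124 ± 221 in vivo. RPL22L1, a paralog of RPL22, had -0.24 at 1862 ± 418 in vitro and 2166 ± 266 in vivo. RPL36AL, a paralog of RPL36A, had -0.22. RPL7L1 had -0.39 at MmugDNA.34627.1.S1_at and 0.51 at a dim probe set, and RPS19BP1 had -0.30 at 193 ± 47.5 in vitro and 252 ± 110 in vivo. None of them passed. RPL3L, which replaces RPL3 in striated muscle, was not above background on any array, at 8.1 ± 9.35 in vitro and 8.3 ± 3.72 in vivo. RPS27L, a p53 target in human cells, was above background on at most 1 in vitro and 2 in vivo arrays at its probe sets.

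By Affymetrix naming, the endings _s_at and _x_at mark probe sets whose probes may match several transcripts. Of the tested ribosomal protein probe sets 39 had the plain ending, 13 ended in _s_at and 3 in _x_at. The one that passed and the other 5 with an unadjusted p under 0.05 all had the plain ending. The 13 _s_at probe sets had log2 fold changes between -0.25 and 0.29, with 0 at an unadjusted p under 0.05. The difference between endings was not tested.

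The ribosomal protein probe sets held 1.42%, 1.46%, 1.36% and 1.17% of the total signal on in vitro replicates 1 to 4, and 1.52%, 1.33%, 1.22% and 1.51% on in vivo replicates 1 to 4. The group means were 1.35% ± 0.131 in vitro and 1.39% ± 0.147 in vivo (SD, n = 4 each), and the groups overlapped. The sum counts a gene once for each of its probe sets. In vitro replicate 4 and in vivo replicate 3 were the low arrays of their groups.

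The median deviation of the 55 tested probe sets from their own 8-array means was 0.15, 0.14, 0.04 and -0.24 on in vitro replicates 1 to 4, on the log2 scale. It was 0.14, -0.04, -0.27 and 0.05 on in vivo replicates 1 to 4. Over all tested probe sets the same median ran only from -0.04 to 0.05. Of the 55, 32.7% were lowest on in vivo replicate 3 and 25.5% on in vitro replicate 4, against 16.7% and 12.5% of all tested probe sets. Of the 33 probe sets with a mean above 1000, 27 were lowest on 1 of these 2 arrays and 22 were highest on in vivo replicate 1 or 4. Over all tested probe sets 18.0% were highest on in vivo replicate 1 and 16.6% on in vivo replicate 4. No count was made for other probe sets as bright, so the pattern cannot be called particular to ribosomal protein genes.

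**Figure D4:**
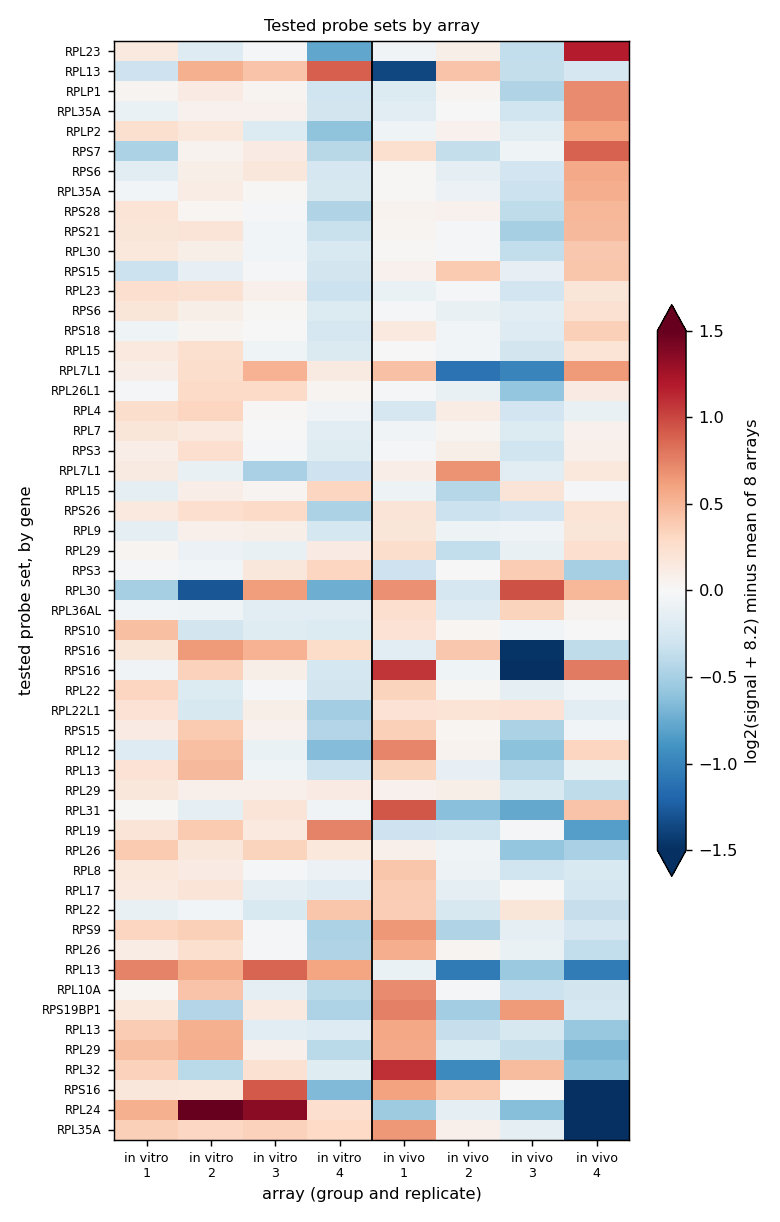
Deviation of log2(signal + 8.2) from the mean of the 8 arrays (colour, cut at 1.5 either way) for the 55 tested probe sets (rows, by gene) on the in vitro (left) and in vivo (right) arrays. Rows run from those highest on in vivo replicate 4 relative to in vivo replicate 1 (RPL23, difference 1.22) to those lowest (RPL35A, difference -2.55).

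The in vivo arrays differed from each other in which ribosomal protein probe sets were high. Replicate 4 exceeded replicate 1 by 0.5 or more on the log2 scale at 8 probe sets, and lay below it by as much at 17. The same counts were not made over all tested probe sets, so these differences cannot be called particular to ribosomal protein genes. RPLP1 was 0.91 higher on replicate 4, and RPS21, a small subunit protein, was 0.45 higher. RPL10A, a large subunit protein, had a difference of -0.99, and RPS9, a small subunit protein, had a difference of -0.90. The SD of the log2 signal was larger in vivo than in vitro at 41 of the 55 (74.5%), against 66.3% of all tested probe sets. Its median over the 55 was 0.25 in vitro and 0.35 in vivo, beside 0.32 and 0.43 over all tested probe sets.

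The ratio of the control probe sets at the start and the end of EEF1A1, a sign of how far amplification reached, was 25.6%, 20.4%, 23.4% and 27.9% on in vitro replicates 1 to 4. It was 37.0%, 13%, 36.8% and 7.79% on in vivo replicates 1 to 4, so in vivo replicates 4 and 1 stood at the ends of its range. The same ratio of the other control genes did not set these 2 arrays apart. GAPDH had 4.06% on in vivo replicate 1 and 4.03% on replicate 4, with its ends at 2.02% and 4.85% on in vivo replicates 2 and 3. Beta-actin had 1.33% and 0.928% on in vivo replicates 1 and 4, within 0.667% to 1.96% over the 8 arrays. The part of the EEF1A1 ratio in the differences among the in vivo arrays was not tested. With this ratio as a covariate, 1 ribosomal protein probe set passed, RPL13 at a log2 fold change of 1.27 (limma adjusted p = 0.00377). That fit called more of the whole array as well, 292 probe sets (1.11%) against 38 (0.144%) without the covariate.

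The somatic cells around an oocyte are granulosa and cumulus cells, and their markers had summed signals of 22848 to 31767 in vitro and 23747 to 26409 in vivo over 17 genes. The hormone subunit gene INHBA and the steroid synthesis gene STAR among them rose (log2 fold changes of 3.08 and 2.60, limma adjusted p of 0.00226 and 0.00861), and 15 of the 17 did not pass, beside the 0.144% called over the whole array. At an unadjusted p under 0.05, 6 of the 17 were higher and 0 lower in vitro, against 4.70% higher and 5.53% lower over all tested probe sets. The 4 of these that did not pass were HSD3B2, EFEMP1, GREM1 and INHA, with log2 fold changes of 2.28, 1.96, 0.93 and 0.59. Over the 17 the median log2 fold change was 0.03, and 10 were above 0, against 50.7% of all tested probe sets. Among those below 0 were HAS2, PTX3 and TNFAIP6, at -0.38, -0.47 and -0.12. The 7 blood and immune markers summed to 91.9 to 181 in vitro and 193 to 295 in vivo. They were dim: the 5 tested averaged 26.0 (S100A8) to 49.6 (HBB), where background was 15.7 to 27.0 by array. Of these 5, 0 passed or had an unadjusted p under 0.05. Single arrays were high, with CD68 at 119 on in vivo replicate 1 and HBB at 165 on in vivo replicate 2. The 8 markers of stroma, theca and endothelium summed to 557 to 1146 in vitro and 467 to 714 in vivo. Of the 5 tested, 0 passed. At an unadjusted p under 0.05, 1 was higher in vitro (TAGLN) and 1 lower (DCN), with log2 fold changes of 1.82 and -1.85. TAGLN was at 617 on in vitro replicate 1. The part of such cells in the RPL13 result was not tested.

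Other genes of the same pathway were read from lists. Of 16 tested genes that share the pyrimidine tract (elongation and initiation factors and others), 0 passed and 0 had an unadjusted p under 0.05, with a median log2 fold change of -0.02. Over all tested probe sets 10.2% had an unadjusted p under 0.05. The initiation factor subunit gene EIF3E was at 6198 ± 374 in vitro and 5030.1 ± 729 in vivo, with a log2 fold change of 0.31 (limma adjusted p = 0.512). EIF3F and EIF3H, of the same complex, had -0.29 and -0.29. FAU, whose product is cleaved to give ubiquitin-like protein and RPS30, had -0.32.

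Of 94 tested genes of ribosome biogenesis, 0 passed, and 5 were higher and 8 lower in vitro at an unadjusted p under 0.05, with a median of -0.03. Over all tested probe sets 4.70% were higher and 5.53% lower at that level. The helicase gene DDX56 was at 777 ± 96.8 in vitro and 1531 ± 479 in vivo (log2 fold change -0.92, limma adjusted p = 0.199). MYBBP1A, a nucleolar protein gene, was at 45.9 ± 24.8 in vitro and 118 ± 24.2 in vivo (-1.32, limma adjusted p = 0.205). In the opposite direction UTP20, of the small subunit processome, was at 409 ± 46.9 in vitro and 260.1 ± 33.1 in vivo (0.64, limma adjusted p = 0.279). LTV1, an assembly factor of the small subunit, had 0.48.

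Of 17 tested genes of mTOR signalling and its control of these mRNAs, 0 passed, and the median log2 fold change was -0.16. An unadjusted p under 0.05 was found at 1 of them, against 10.2% of all tested probe sets. That gene was RICTOR, a subunit of mTOR complex 2, at 1032 ± 205 in vitro and 709 ± 132 in vivo (log2 fold change 0.53, limma adjusted p = 0.375). The S6 kinase gene RPS6KB1 had 0.39 and TSC1, whose product restrains mTOR, had 0.41, while MLST8, a subunit of both mTOR complexes, had -0.62, and none of these passed. Of the 17, 7 had a log2 fold change above 0, against 50.7% of all tested probe sets.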

How the data were processed

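Per the labels' protocols, RNA of 4 oocytes went through repeated amplification and biotin labelling before hybridisation to an Affymetrix array in 1 colour. The intensity values deposited by the authors are linear; the submitters' processing notes name MAS5 without a version. Every array's trimmed mean was 150. Amplified RNA can under-represent the start of transcripts, so a probe set's position can change its signal.

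Of 52865 probe sets, 99 controls were left out. Samples were grouped by title. Values were taken as log2(signal + 8.2), the 25th percentile of non-control signals. This understates changes of dim transcripts. Probe sets whose mean log2 value over 8 arrays exceeded the 50th percentile were tested with limma 3.58.1 in R 4.3.3 (lmFit, eBayes with trend; in vitro minus in vivo; Benjamini-Hochberg over 26383). Within-gene differences were fitted without trend. The fit was tested on simulated data. There it recovered 18% of 50 changes of 2-fold and 72% of 50 changes of 4-fold, and 7 of 146 calls were false. Most 2-fold changes thus went uncalled, so the absence of a call does not show the absence of a change.

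Named genes are those past the threshold, the 14 with smallest p, the 6 brightest, the 5 with the widest spread between 3 or more tested probe sets (4 qualified), 7 landmark and 13 paralog symbols, where present. RPS10, RPL10A, RPS9, RPS21, RPL5, RPS19 and the genes named from lists were chosen after their values were seen. The members and lists were chosen with earlier results of these data known. Same-numbered arrays of the groups were not treated as pairs in the main fit. Alternatives were other pseudocounts, filters, normalizations, variance models, array weights, a replicate block, control ratios and each array left out. No sequences were used here.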

Additional observations from a re-analysis of the deposited data

Results flagged for a closer look

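A lone array stood apart, by Dixon's test at the 95% level, in 2 of 116 groups of 4 values examined, where chance flags about 5%. RPL22L1 was at 1767 on in vivo replicate 4, below 2282 to 2312 on the other in vivo arrays, and RPS10 was at 418 on in vitro replicate 1, above 251 to 268 on the other in vitro arrays. RPS10, a small subunit protein, had a log2 fold change of -0.10.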

How the results depend on the processing

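The count of ribosomal protein probe sets past the threshold was 1 with other pseudocounts, filters, normalizations, robust variance, array weights and control-ratio covariates. It was 0 without the intensity trend and 2 with the replicate block, which added RPL24 (limma adjusted p = 0.0168). Over the whole array these fits called 10 (0.0379%) and 43 (0.163%) probe sets, array weights 88 (0.334%) and the fits with an array left out 18 to 97. Taking the brightest probe set of each gene gave 0 of 37, with 3 at an unadjusted p under 0.05. Leaving out 1 array gave 0 to 1. The replicate numbers gave no sign of pairing. Deviations of same-numbered arrays correlated by -0.05 to 0.02, and 1 of 4 in vitro arrays correlated best with its own number. Such correlations cannot show whether same-numbered arrays shared an animal, which the labels do not say. Apart from RPL24, the block changed no call among the ribosomal protein probe sets. RPL13 had a limma adjusted p of 0.203 without the trend and stayed past the threshold under the 11 other settings that kept all arrays. The median log2 fold change ran from -0.04 to 0.07 over settings and from -0.03 to 0.11 with an array left out. The ratio of signal shares, in vitro over in vivo, was 0.970 over all probe sets and 0.977 with a single probe set per gene. Within-gene differences gave 0 calls under the other pseudocounts, the block and each array left out, with 1 to 4 at an unadjusted p under 0.05. Of 793 recomputed values of named probe sets, 6 lost a call, 1 gained one and 0 reversed a called direction. Dim probe sets near background limit the rest.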

Other observations

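A further 32 probe sets carry several symbols, of which 1 is a ribosomal protein gene, and name no single gene. They belong to no count above. Of these, 26 were bright enough to be tested, with mean signals from 43.6 to 18318. None passed limma's adjusted threshold, and 0 had an unadjusted p under 0.05, against 10.2% of all tested probe sets. Their log2 fold changes, in vitro minus in vivo, ran from -0.56 to 0.37 with a median of -0.01, and 12 were above 0. The groups overlapped at all 26. Their median SD of the log2 signal was 0.26 in vitro and 0.34 in vivo, beside 0.32 and 0.43 over all tested probe sets.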
